A study of Mus musculus with 6 samples.

Results

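The genes described here carry the creatine and adenylate phosphate-transfer systems: the creatine kinases Ckb, Ckmt1, Ckm and Ckmt2, the creatine transporter gene Slc6a8, the creatine synthesis genes Gatm and Gamt, and the adenylate kinases Ak1 and Ak4. These 9 genes were taken by symbol from a table of 57180 mouse genes. The genes were named by role but selected on earlier results of the same comparison, the TPM levels of Visomitin against Control libraries, so the differences of these genes between the groups are given as a description. A fit over all genes also called some of them, and those calls are counted below but support nothing. Cells were mouse wild-type bone marrow-derived macrophages, primary cells labelled BMMs, held for 5 days in osteoclast-inducing culture with Visomitin (3 libraries) or without it (3 Control libraries). Both groups thus share the osteoclast-inducing culture, and cells kept out of it were not analysed here. Visomitin, also called SkQ1, is a plastoquinone antioxidant joined to a cation that carries it into mitochondria. The labels state no dose. They also do not say whether the libraries came from separate mice or cultures, so p-values reflect library-to-library spread alone, and that spread may be technical.

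Creatine kinases move a phosphate group between ATP and creatine. A mitochondrial form charges creatine close to where ATP is made, and a cytosolic form rebuilds ATP close to where it is spent, such as at pumps and at the actin cytoskeleton. Cells obtain creatine through the transporter encoded by Slc6a8, or make it in consecutive steps: Gatm encodes the enzyme that joins arginine and glycine into guanidinoacetate, and Gamt the enzyme that methylates it. Adenylate kinases convert ADP into ATP and AMP, which lets AMP report on the energy state of the cell. In mouse osteoclasts the brain-type kinase Ckb is known as an abundant protein with a role in bone resorption.

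The upstream sequences of Ckb and Ckmt1 are shown because these genes had the lowest levels relative to Control among the 9. RefSeq promoter sequences (GRCm38.p6) were found for 8 of the 9 members by symbol; Slc6a8 has no entry. Each sequence below is the 250 bases that end just before a RefSeq start site, on the strand of the gene, 5′ to 3′. Ckb lies on the minus strand at chr12:111672339-111672588 and Ckmt1 on the plus strand at chr2:121357526-121357775. In Ckb the capitals mark TATAAA at -28 and CCAAT at -46 and -16, counted back from the start site. In Ckmt1 they mark TATAAA read on the opposite strand at -31 and the half-site AAGGTCA of estrogen-related receptors, also on the opposite strand, at -179. The GENCODE M21 annotation starts Ckmt1 at 121357714, inside this window, so this TATAAA match lies past that start.
Ckb: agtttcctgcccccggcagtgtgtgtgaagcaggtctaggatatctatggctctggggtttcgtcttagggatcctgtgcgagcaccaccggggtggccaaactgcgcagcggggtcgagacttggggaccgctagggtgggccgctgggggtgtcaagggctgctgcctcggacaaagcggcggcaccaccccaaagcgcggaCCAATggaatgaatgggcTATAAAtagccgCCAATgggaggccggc
Ckmt1: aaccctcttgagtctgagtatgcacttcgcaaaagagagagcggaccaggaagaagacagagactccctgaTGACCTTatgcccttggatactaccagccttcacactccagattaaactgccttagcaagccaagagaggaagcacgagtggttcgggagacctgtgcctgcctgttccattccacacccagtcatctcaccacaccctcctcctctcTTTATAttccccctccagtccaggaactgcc

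Searched on both strands in the same window of all 32851 promoters, TATAAA occurred in 12.4%, CCAAT in 33.8% and AAGGTCA in 4.08%. The AP-1 letters TGANTCA (6.75% of promoters), the STAT letters TTCNNNGAA (7.02%), the letters CANGTG, which cover the E-box of MITF (39.5%), and GGGCGG (32.7%) were not in either window. The short NFAT core GGAAA, found in 55.6% of promoters, occurred in Ckb, on the opposite strand at -248. RefSeq lists another start site for Ckmt1, and its window held CCAAT at -242, on the opposite strand, and no other of these letters. None of the Ckb, Ckmt1 and NFAT matches overlapped another. These matches describe letters in the windows and no binding was measured.

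Ckb, the cytosolic brain-type creatine kinase, was the most abundant of the 9 genes in each of the 6 libraries and was much lower with Visomitin. It had 545, 564 and 570 TPM in the 3 Visomitin libraries, against 2049, 2082 and 2215 TPM in the 3 Control libraries. TPM is a share of each library's transcripts per unit of length, scaled to a fixed total, so levels of different genes can be set side by side. The groups lay far apart and each was tight: the mean was 559.8 ± 12.9 TPM with Visomitin and 2115 ± 87.7 TPM in Control (SD, n = 3 each). The log2 difference, Visomitin minus Control, was -1.92 (SE 0.07) on the log2(TPM + 1) scale, which is used for all differences here. Ckb ranked 254 to 268 by TPM among all genes in the Visomitin libraries and 60 to 64 in the Control libraries. Its transcript took 0.0545% to 0.057% of all TPM with Visomitin and 0.205% to 0.2215% in Control. In bulk RNA, fewer osteoclasts and less Ckb transcript per cell cannot be told apart.

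Ckmt1, the ubiquitous mitochondrial creatine kinase, was a minor transcript that was also lower with Visomitin. It was listed at 1.31, 2.06 and 1.44 TPM with Visomitin, against 8.58, 11.8 and 9.74 TPM in Control. No Visomitin library came near a Control library, although the Visomitin values sat close to the lower end of the measured range. The log2 difference was -2.09 (SE 0.17). For a gene this low the value moved with the pseudocount, to -2.59 with 0.1 and -1.18 with 5. The ratio of mean TPM, Visomitin over Control, was 0.16, against 0.26 for Ckb. The ratio of Ckb to Ckmt1 TPM was 274 to 416 with Visomitin and 176 to 239 in Control. By the annotation its locus overlaps Strc, a gene on the opposite strand, and no source used here states whether reads were counted by strand.

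The muscle-type kinases contributed almost nothing. Ckm, the muscle cytosolic form, was listed at 0.27, 0.69 and 0.14 TPM with Visomitin, against 1.00, 1.96 and 0.64 TPM in Control. The groups overlapped and Ckm did not reach 1 TPM in the 3 libraries needed to enter the fit. An antisense gene, A930016O22Rik, holds 12.8% of the 31-base words of Ckm and was listed at 0.03 to 1.47 TPM, so the low Ckm values are uncertain. Ckmt2, the sarcomeric mitochondrial form, was listed at 0 in all 6 libraries. Ckb thus made up 99.5% to 99.7% of the summed creatine kinase TPM with Visomitin and 99.3% to 99.5% in Control. The summed level of the 4 genes was 547, 567 and 571 TPM with Visomitin, against 2059, 2096 and 2225 TPM in Control. Processed copies of Ckb share some of its sequence, at most 16.6% of its 31-base words for Gm12892, and Gm12892, Ckb-ps1 and Ckb-ps2 were each listed at 0 in all libraries.

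**Figure D1:**
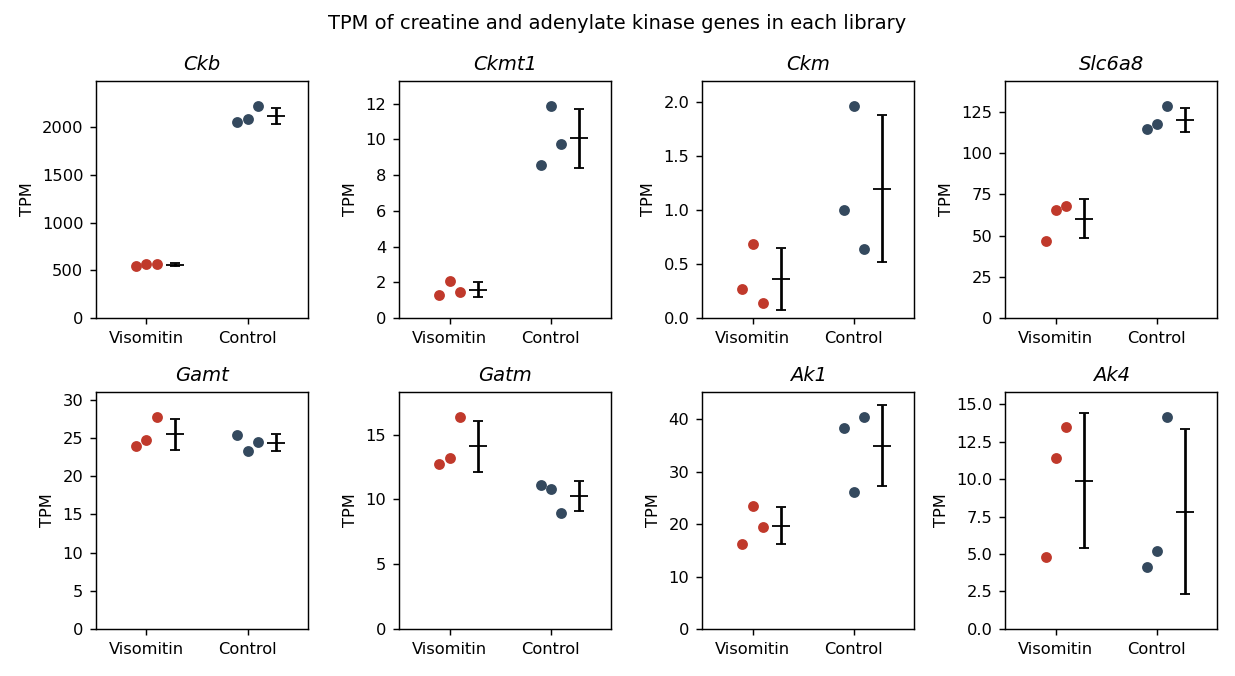
TPM of 8 of the 9 genes in each library (points), with Visomitin left and Control right; the bar beside each set of 3 points is the mean ± SD, each panel has its own linear axis from 0, and Ckmt2, at 0 in all libraries, is not drawn. Ckb, Ckmt1, Slc6a8 and Ak1 lie lower in every Visomitin library than in any Control library, Gatm lies higher, and the groups overlap for Ckm, Gamt and Ak4.

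Slc6a8, which encodes the sodium- and chloride-dependent creatine transporter of the plasma membrane, was also lower with Visomitin. It had 46.6, 65.7 and 68.1 TPM with Visomitin, against 114, 118 and 128 TPM in Control. The groups did not overlap, and Visomitin 1 was the lowest of the 6 libraries. The means were 60.1 ± 11.8 TPM with Visomitin and 120.2 ± 7.2 TPM in Control (SD, n = 3 each), with a log2 difference of -1.005 (SE 0.14). Without Visomitin 1 the difference was -0.83. Ckb was lower by more than the creatine transporter gene. The ratio of Ckb to Slc6a8 TPM was thus 8.4 to 11.7 with Visomitin and 17.3 to 17.9 in Control.

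The synthesis genes did not follow the kinase and the transporter. Gatm, for the arginine:glycine amidinotransferase, had 12.7, 13.2 and 16.4 TPM with Visomitin, against 11.1, 10.8 and 8.93 TPM in Control. Every Visomitin library was above every Control library, by a small margin, and the log2 difference was 0.42 (SE 0.14). Gamt, for guanidinoacetate methyltransferase, had 24.0, 24.7 and 27.8 TPM with Visomitin, against 25.4, 23.3 and 24.5 TPM in Control. Those ranges overlapped and the log2 difference was 0.06 (SE 0.10). Its sign depended on 1 library, at -0.0011 without Visomitin 3.

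Of the adenylate kinases, Ak1 was lower with Visomitin and Ak4 varied more within the groups than between them. Ak1, the cytosolic form, had 16.3, 23.4 and 19.4 TPM with Visomitin, against 38.4, 26.1 and 40.4 TPM in Control. The groups did not overlap, but Control 2 lay close to Visomitin 2. The log2 difference was -0.79 (SE 0.19), and -0.98 without Control 2. Ak4, the mitochondrial matrix form, had 4.82, 11.4 and 13.5 TPM with Visomitin, against 4.12, 5.17 and 14.1 TPM in Control. Each group held low and high libraries, with a coefficient of variation of 45.7% with Visomitin and 70.5% in Control. The log2 difference of Ak4 was 0.38 (SE 0.45), and it depended on single libraries. Leaving out Control 1, 2 or 3 gave 0.07, 0.20 or 0.85, and leaving out Visomitin 1, 2 or 3 gave 0.78, 0.23 or 0.12. A copy, Ak3l2-ps, shares 11.6% of the 31-base words of Ak4 and was listed at 0.

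Read as a set, 7 of the 9 genes passed the filter of 1 TPM in at least 3 libraries, and all 7 were at 1 TPM or more in each of the 6 libraries. Their median log2 difference was -0.79, beside -0.03 over all 11753 genes tested. Group ranges did not overlap for 5 of the 7, where 30.4% of all genes tested were apart in either direction. In the limma fit over all genes, 4 of the 7 (Ckb, Ckmt1, Slc6a8 and Ak1) were called lower at a Benjamini-Hochberg adjusted p of 0.05, where 5.03% of all genes were, and 0 were called higher, where 2.08% were (7.1% in either direction). Since this comparison was known when the genes were chosen, nothing is read from these counts. The fit no longer called Ak1 when Control 1, Control 3 or any single Visomitin library was left out, at differences of -0.91 to -0.66, nor with no filter on low values or without the trend. Gatm was called higher after median-ratio scaling, after quantile normalization and with array weights. The first of these gave a difference of 0.46, the second 0.48 and the last 0.34.

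**Figure D2:**
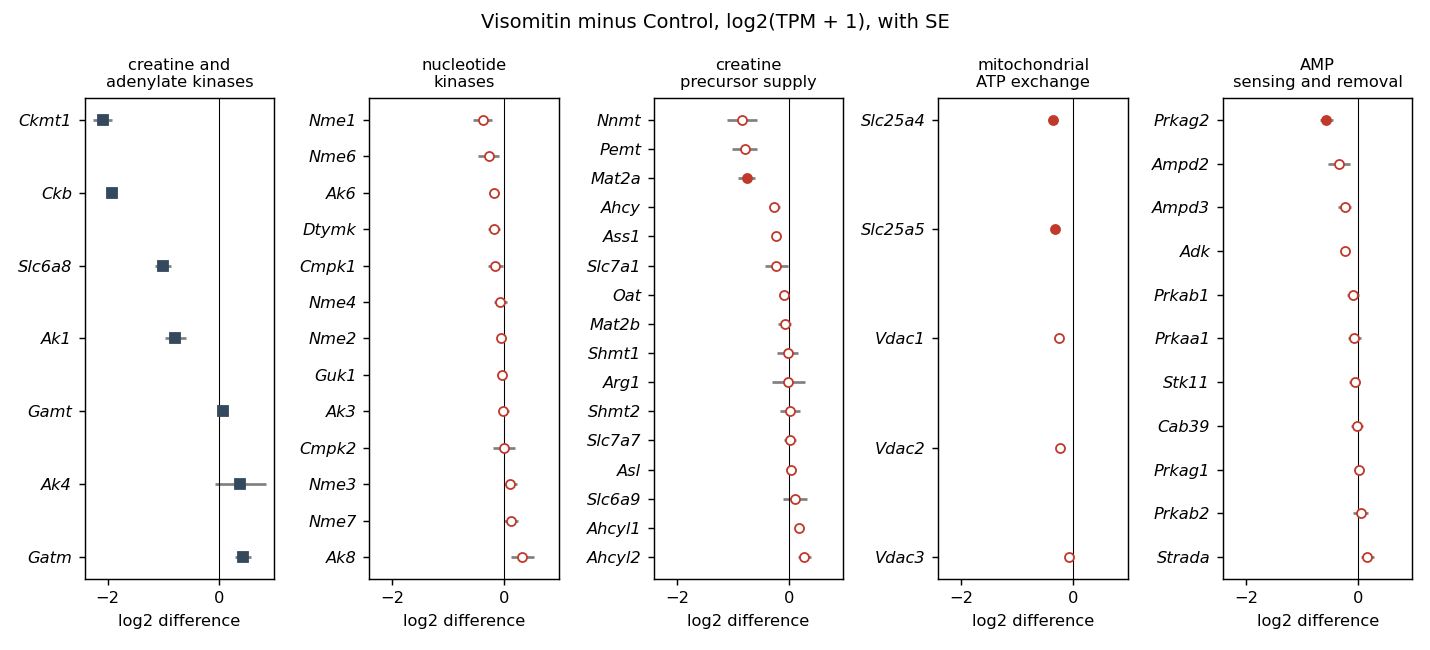
Log2 differences, Visomitin minus Control, on the log2(TPM + 1) scale with their standard errors, for the 7 genes in the fit (squares, no test shown) and for 45 of the 46 tested genes of 4 related lists (circles, filled where limma's adjusted p was under 0.05). The squares run from -2.09 for Ckmt1 to 0.42 for Gatm, and the 4 filled circles all lie below 0, between -0.75 and -0.33.

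The levels were set beside markers of the cells that the culture could hold. The 12 osteoclast markers summed to 2983 to 3594 TPM with Visomitin and 11292 to 12242 TPM in Control. All 12 fell by limma at an adjusted p of 0.05, where 5.03% of all tested genes did. Their median log2 difference was -2.04. The marker lists were chosen with earlier results of these data known, so their counts are a description. Of these 12 genes, 8 had a difference further below 0 than that of Ckb and 6 further than that of Ckmt1. Per unit of Ctsk, the collagen-degrading protease of osteoclasts, Ckb stood at 0.796 to 0.913 with Visomitin and 0.637 to 0.729 in Control. The direction of such a ratio depends on the marker. Ctsk fell by more than Ckb (log2 difference -2.22), while Mmp9 (-1.39) and Nfatc1 (-0.76) fell by less. The 10 macrophage markers summed to 43030 to 48304 TPM with Visomitin and 37388 to 41570 TPM in Control. Most of that sum was the lysozyme gene Lyz2, at 38065 to 42065 TPM with Visomitin and 32021 to 36284 TPM in Control. Cd68, a lysosomal membrane glycoprotein gene, lay the other way with ranges apart, at 1501 to 1712 TPM with Visomitin and 1814 to 1928 TPM in Control (limma adjusted p = 0.163). Of the 10 log2 differences, 8 were above 0 and 2, that of Cd68 among them, were below 0. Of the 10 markers 2 rose, the mannose receptor gene Mrc1 (0.61, limma adjusted p = 0.0125) and the receptor kinase gene Mertk (0.57, limma adjusted p = 0.0221), and 0 fell. Over all tested genes 2.08% rose and 5.03% fell. The part of a changed share of osteoclasts in the values of Ckb, Ckmt1 and Slc6a8 was not tested.

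Markers of stromal cells varied between libraries and ran partly alongside Ak1. The 6 stromal markers summed to 73.9, 115.5 and 162.5 TPM with Visomitin, against 212, 110.9 and 318 TPM in Control. Most of that sum was Col1a1 and Col1a2. Control 2, the Control library with the least Ak1, also had the lowest sum, and Visomitin 1 was the lowest of all 6 libraries in both. The match was incomplete. Visomitin 3 had a higher stromal sum than Control 2 but less Ak1 (19.4 against 26.1 TPM). Dcn was highest in Control 2, at 3.18 TPM. Of the 6 markers 5 were tested and 0 passed in either direction, where 7.1% of all tested genes did. Lum was above 0 in 1 library alone. The part of stromal transcripts in the values of Ak1 was not tested. The 10 muscle markers, relevant to Ckm, summed to 3.87 to 4.75 TPM with Visomitin and 2.52 to 6.10 TPM in Control, with myoglobin (Mb) at 0. The 6 erythroid markers were listed at 0 in all libraries. Neutrophil and progenitor markers summed to 8.82 to 15.3 TPM with Visomitin and 11.4 to 19.5 TPM in Control, all of it S100a8. S100a9 was listed at 0 in all libraries. Whether a listed 0 means that a transcript was absent was not tested for any gene here. Lymphocyte markers summed to 0.89 to 1.79 TPM with Visomitin and 0.30 to 0.51 TPM in Control. Most of this was Cd79b in each library, and 0 of the 6 lymphocyte markers entered the fit.

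**Figure D3:**
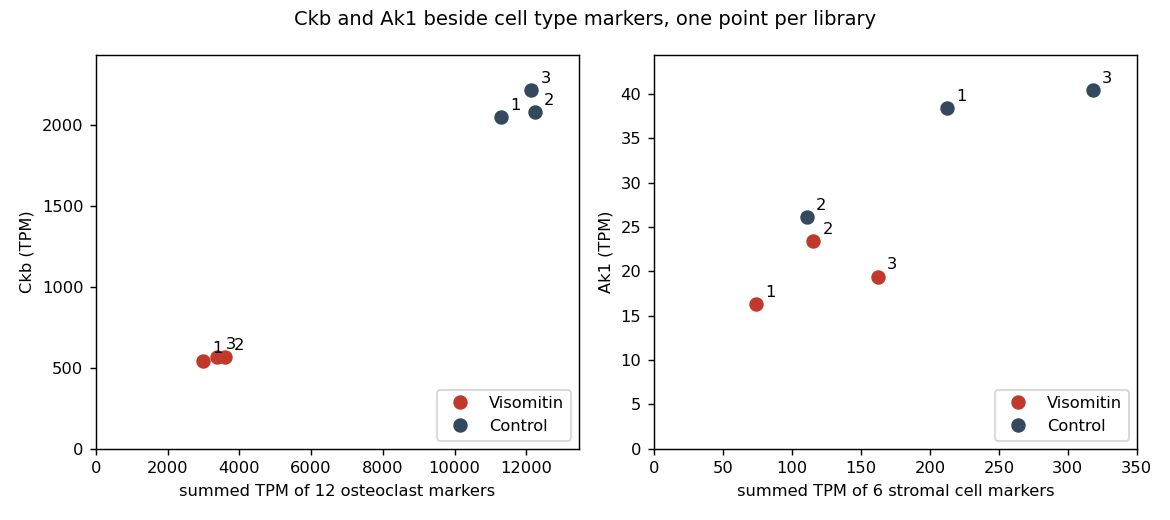
Ckb against the summed TPM of 12 osteoclast markers (left) and Ak1 against that of 6 stromal markers (right), 1 point per library with its number, Visomitin in red and Control in dark grey, on linear axes from 0. The Ckb points form separate clusters, 545 to 570 TPM with Visomitin and 2049 to 2215 TPM in Control, while for Ak1 Visomitin 2 and Control 2 lie close together.

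The genes with the pattern most like Ckb were found by the root mean square difference of log2(TPM + 1) over the 6 libraries, after the mean of each gene was subtracted. The nearest was Oscar, for the osteoclast-associated immunoglobulin-like receptor, at 0.0506, and it had 13.7, 15.3 and 15.45 TPM with Visomitin, against 61.2, 58.6 and 62.95 TPM in Control. Next came Acp5, the tartrate-resistant acid phosphatase gene, at 0.102, then Rufy4 at 0.104, the phosphoinositide kinase gene Pip5k1b at 0.108 and the mesothelin gene Msln at 0.108. Oscar and Acp5 are also in the osteoclast marker list. For Ckmt1 the nearest were Apbb1 (0.083), Acp5 (0.118) and the integrin gene Itgb3 (0.123). With 3 libraries a group, likeness of this kind rests mainly on the difference between the groups.

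Slc6a8, Gatm and Ak1 had other neighbours. Slc6a8 was nearest to Rai14 (0.0458), Ssc5d (0.0486) and Fam83g (0.0535), each lowest in Visomitin 1, as Slc6a8 was. Gatm was nearest to Eps15 (0.0332), Fgd2 (0.0357) and Appl2 (0.0525), genes of endocytic or cytoskeletal proteins that were highest in Visomitin 3. Among the genes nearest to Ak1 were Cacybp (0.0694) and Htra3 (0.109), and both, like Ak1, had their lowest Control value in Control 2.

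**Figure D4:**
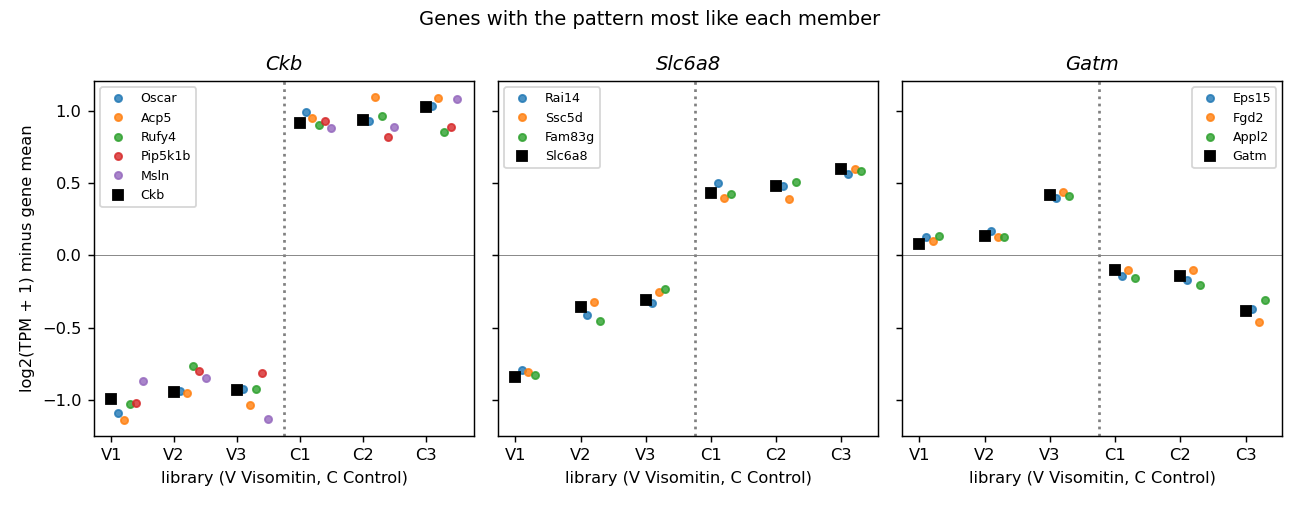
Log2(TPM + 1) of Ckb, Slc6a8 and Gatm (black squares) and of the genes with the most similar pattern (coloured circles), each with its own mean over the 6 libraries subtracted; V1 to V3 are Visomitin and C1 to C3 are Control libraries. The Visomitin libraries lie below 0 for Ckb and Slc6a8 and above 0 for Gatm, and Visomitin 1 is the lowest library for Slc6a8.

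Genes around these systems were taken from 4 lists drawn up by role, with earlier results of these data known. Their calls and p-values below are therefore a description. Of 61 genes 46 were tested, and by limma at an adjusted p of 0.05, 5 fell, where 5.03% of all tested genes did, and 0 rose, where 2.08% did. The median log2 difference of the 46 was -0.07. At an unadjusted limma p of 0.05, 13 were lower and 1 was higher. The share of all tested genes at that threshold was not counted, so nothing is read from these 2 counts. A gene that did not pass is not thereby shown to be unchanged.

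Among nucleotide kinases, the enzymes that rebalance ATP, GTP and other nucleotides, 14 of 18 were tested, 1 fell and 0 rose, with a median of -0.06.

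The list for the supply of arginine, glycine and methyl groups to creatine synthesis had 16 of 23 genes tested, of which 1 fell and 0 rose, with a median of -0.04. Mat2a, whose enzyme makes the methyl donor S-adenosylmethionine, had 31.1, 32.6 and 44.5 TPM with Visomitin, against 54.9, 57.3 and 70.2 TPM in Control. Each Visomitin library was below each Control library, with a log2 difference of -0.75 (SE 0.15, limma adjusted p = 0.0258). Leaving out any single library except Visomitin 3 ended its call, as did no filter on low values (limma adjusted p up to 0.0933), at differences of -0.82 to -0.64. Slc16a12, for a transporter known to let creatine out of cells, stayed below 0.2 TPM in each library.

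Mitochondrial ATP exchange, by which ATP leaves the mitochondrial matrix for the mitochondrial creatine kinase and the cytosol, had 5 of 6 genes tested. Of these, 2 fell and 0 rose, where 5.03% and 2.08% of all tested genes did, with a median of -0.26. All 5 values were below 0, as were 6550 of all 11753 tested genes. Slc25a4 and Slc25a5 encode the ADP/ATP carriers of the inner membrane. Slc25a5 had 640, 699 and 707 TPM with Visomitin, against 842, 861 and 862 TPM in Control (log2 difference -0.33, SE 0.07, limma adjusted p = 0.0341). Slc25a4 had 181, 191 and 216 TPM with Visomitin, against 248, 268 and 242 TPM in Control (-0.37, SE 0.09, limma adjusted p = 0.0476). In both genes each Visomitin library was below each Control library, as in 18.4% of all tested genes. Slc25a5 lost its call when any single library except Visomitin 1 was left out, and Slc25a4 when any except Visomitin 3 was. Both also lost it with no filter and without the trend, and Slc25a4 with a pseudocount of 0.1 (limma adjusted p up to 0.119 for Slc25a5 and 0.153 for Slc25a4).

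Of the genes for AMP sensing and removal, 11 of 14 were tested, 1 fell and 0 rose, with a median of -0.07. Prkag2, for a regulatory subunit of the AMP-activated protein kinase, had 14.4, 18.8 and 18.0 TPM with Visomitin, against 24.4, 27.1 and 25.2 TPM in Control. The groups were apart, with a log2 difference of -0.56 (SE 0.12, limma adjusted p = 0.0319). Leaving out any Control library or Visomitin 2 ended its call, as did no filter on low values (limma adjusted p up to 0.098).

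Each library had 11551 to 11821 genes at 1 TPM or more, and sequencing depth is unknown, since TPM do not keep it. The first principal component of the tested genes (44.1% of the variance) separated the groups. On the second (19.6%), Visomitin 1 scored 25.1, Visomitin 2 scored -17.2 and Visomitin 3 scored -16.8. Without Visomitin 1, the differences were -1.90 for Ckb, -2.01 for Ckmt1, -0.83 for Slc6a8, 0.10 for Gamt, 0.48 for Gatm and -0.66 for Ak1. By the GENCODE M21 annotation (GRCm38), Ckb lies on chromosome 12 at 111669361 to 111672338, Ckmt1 on chromosome 2 at 121357714 to 121363737, Slc6a8 on chromosome X at 73673150 to 73682502, Gatm on chromosome 2 at 122594467 to 122611303, Gamt on chromosome 10 at 80258151 to 80261012, Ak1 on chromosome 2 at 32621758 to 32635058 and Ak4 on chromosome 4 at 101419277 to 101466995. The deposited table lists Ckb as ENSMUSG00000001270, Ckmt1 as ENSMUSG00000000308, Ckm as ENSMUSG00000030399, Ckmt2 as ENSMUSG00000021622 and Slc6a8 as ENSMUSG00000019558. It lists Gatm as ENSMUSG00000027199, Gamt as ENSMUSG00000020150, Ak1 as ENSMUSG00000026817 and Ak4 as ENSMUSG00000028527.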

How the data were processed

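Per the labels' protocols, total RNA (TRIzol, DNase I) went into a stranded mRNA kit. Per the submitters' processing notes, fastp, HISAT2 and StringTie were used; no source used here gives versions, genome build, annotation or strand setting. The authors deposited TPM per gene for each library, and these were used as deposited. Symbols from a reference table were found for 51884 of 57180 identifiers, including all 9 members. Genes at 1 TPM or more in at least 3 of 6 libraries (11753) were fitted as log2(TPM + 1), pseudocount 1, in R 4.3.3 by limma 3.58.1 (lmFit, then eBayes with trend=TRUE), group as the only term, two-sided, with Benjamini-Hochberg adjustment over all tested genes at 0.05. The fit was tested on simulated data with 200 changed genes. It called 37.5% of changes of 1.5-fold, 76.9% of 2-fold and 96.4% of 4-fold on the TPM + 1 scale. Of its calls 2.92% were false.

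The members, lists and motifs were chosen with earlier results of these data known. Named pathway genes are those of each list that passed, up to 6, and the genes nearest in pattern are the first 5 for Ckb and the first 3 for other tested members whose group ranges do not overlap. Some genes that these rules name are not reported here. The 15 alternatives were other pseudocounts, filters and scalings, no trend, array weights, a replicate block, and leaving out each library. The labels do not say whether same-numbered libraries are paired. Their residual correlations were 0.05, 0.02 and 0.17, and numbers were not taken to pair libraries, though these values do not exclude it. At most 0.391% of tested genes had equal TPM in any pair of libraries. Near-identical copies were sought as shared 31-base words in GENCODE M21 transcripts.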

Additional observations from a re-analysis of the deposited data

How the results depend on the processing

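Over the 15 alternatives the log2 difference was -1.94 to -1.87 for Ckb, -2.59 to -1.18 for Ckmt1 and -1.10 to -0.83 for Slc6a8. These genes were selected on the same comparison, so neither these ranges nor the member counts that follow are evidence of stability. The count of the 7 tested members called lower, 4 as reported, was 3 to 4 in each alternative, and the count called higher, 0 as reported, was 1 after median-ratio scaling, after quantile normalization and with array weights. Of the nucleotide kinases, 0 were called lower without the trend, 3 with array weights and 2 with the replicate block. Of the creatine precursor genes, 0 were called lower with no filter on low values, 4 with array weights and 3 with the replicate block; 1 was called higher after quantile normalization and 2 with array weights. Of the ATP exchange genes, 1 was called lower with a pseudocount of 0.1, 0 with no filter or without the trend, and 4 with array weights. Of the AMP genes, 0 were called lower with no filter and 2 with array weights. With a library left out, called-lower counts ranged from 0 to 1 for nucleotide kinases, creatine precursor genes and AMP genes and from 0 to 2 for ATP exchange genes. Over all genes, 591 lower and 244 higher as reported became 308 and 73 with no filter, 1572 and 1263 with array weights, 689 and 481 after median-ratio scaling and 651 and 559 after quantile normalization. With a library left out they ranged from 244 to 561 lower and from 64 to 420 higher; the lower count was at most 330 without Control 1, 2 or 3 or Visomitin 2, and the higher count was 420 without Visomitin 1. Leaving out a library lowers the residual degrees of freedom, and the cause of the other changes was not tested. The replicate block, tried although the labels state no pairing, left the called-lower members at 4. The number of libraries, and for Ckmt1 and Ckm the low TPM, limit the precision.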
